A study of Saccharomyces cerevisiae with 38 samples.

Results

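The 10 genes described here carry out iron uptake or belong to the same iron response in budding yeast (Saccharomyces cerevisiae). They are the cell wall mannoprotein genes FIT1 (YDR534C), FIT2 (YOR382W) and FIT3 (YOR383C), the reductive iron uptake genes FET3 (YMR058W) and FTR1 (YER145C), the siderophore transporter genes ARN1 (YHL040C), ARN2 (YHL047C), SIT1 (YEL065W) and ENB1 (YOL158C), and the iron-sulfur scaffold gene ISU1 (YPL135W). All 10 were found by symbol in the probe annotation, among 5548 named genes, and each was printed as 1 spot. The list was set by gene name, and it was drawn up with earlier results of these data known.

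Yeast takes up iron by 2 routes. In the reductive route, surface reductases reduce ferric to ferrous iron, the multicopper oxidase Fet3 oxidises it again and the permease Ftr1 carries it in. In the other route, transporters of the Arn family import iron still bound to siderophores, chelators that other microbes secrete, and the Fit mannoproteins hold such chelates in the cell wall. The activators Aft1 and Aft2 switch these genes on when the mitochondria make too few iron-sulfur clusters, which are built on the scaffold proteins Isu1 and Isu2. The mutant strains here were altered in TAF1, in a histone acetyltransferase (HAT) gene or in both. TAF1 encodes a subunit of TFIID, the factor that brings TATA-binding protein to promoters, and HATs acetylate histones.

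The series holds 38 glass arrays in 14 groups, and on each array polyA RNA of a strain under test in one dye met that of a wild-type (WT) strain in the other. The groups were ts2 (6 arrays), a temperature-sensitive allele of TAF1 that the titles name only as ts2, the HAT mutants elp3, esa1, gcn5, hat1, hpa2 and sas3 (2 arrays each), the double mutants elp3 ts2, esa1 ts2, gcn5 ts2, hat1 ts2, hpa2 ts2 and sas3 ts2 (2 arrays each), and WT against WT (8 arrays). Every culture, WT included, was grown in synthetic medium lacking histidine to an OD600 near 0.8 and held at 37 °C for 45 minutes, so each value is a mutant at the restrictive temperature against WT at that temperature. The labels give neither the HAT alleles nor whether arrays came from separate cultures, and p-values then measure only the spread between arrays, which may be technical.

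Each value below is a log2 ratio of test strain to WT after subtraction of the array's median over the named genes, so 0 means that a gene moved with the median gene of that array. The median ratio of an array lay between 0.313 and 2.5 before this step. On the deposited scale, without it, the fitted median gene lay between -1.02 (esa1 ts2) and 0.76 (elp3), and all changes here are relative to it. The genes targeted in the strains were at -3.41 to -2.22 on the 4 arrays with a gcn5 mutation, against -0.42 to 0.54 on the other 34 (GCN5), and at -3.85 to -2.70 on the 4 with a hat1 mutation, against -0.98 to 0.98 on the other 34 (HAT1). ELP3, HPA2 and SAS3 did not settle their labels in this way, so groups of these names are the arrays labelled so. ELP3 had a fitted change of 0.05 in elp3 and -0.37 in elp3 ts2, and HPA2 of 0.20 in hpa2 and -0.53 in hpa2 ts2. SAS3 was lower, at -1.59 in sas3 and -1.19 in sas3 ts2. ESA1 was higher, at 0.97 in esa1 and 0.77 in esa1 ts2. The hpa2 ts2 array A carries the strain number of elp3 beside its hpa2 ts2 title, and the calls in hpa2 ts2 are also given without it. A gene was called where limma's adjusted p (Benjamini-Hochberg over all genes tested in a comparison) was below 0.05, and ± gives a standard error (SE) unless it is marked SD. Slide numbers fell into 4 runs, which were treated as batches, with ts2 and WT arrays together in runs 2, 3 and 4.

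In ts2 all 10 genes were called, 8 higher and 2 lower, where 65.2% of all 5546 genes tested were called. Calls were split evenly over all genes, with 32% higher and 33.2% lower. The members' median change was 0.84, and the median over all genes was 0.01. FIT2, ISU1, FET3 and ARN1 stood 2.26-fold to 3.19-fold above their WT level, whereas FIT1 and ARN2 were lower. All 10 calls remained when any ts2 or WT array was left out, and within slide runs 2 and 3 alone. Within slide run 4 alone, 8 remained, and the calls of FIT1 (-0.78, adjusted p = 0.078) and ARN2 (-0.35, adjusted p = 0.077) did not. On the deposited scale 7 were called, 5 higher and 2 lower, without FTR1 (0.36), SIT1 (0.27) and ENB1 (0.35).

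**Figure D1:**
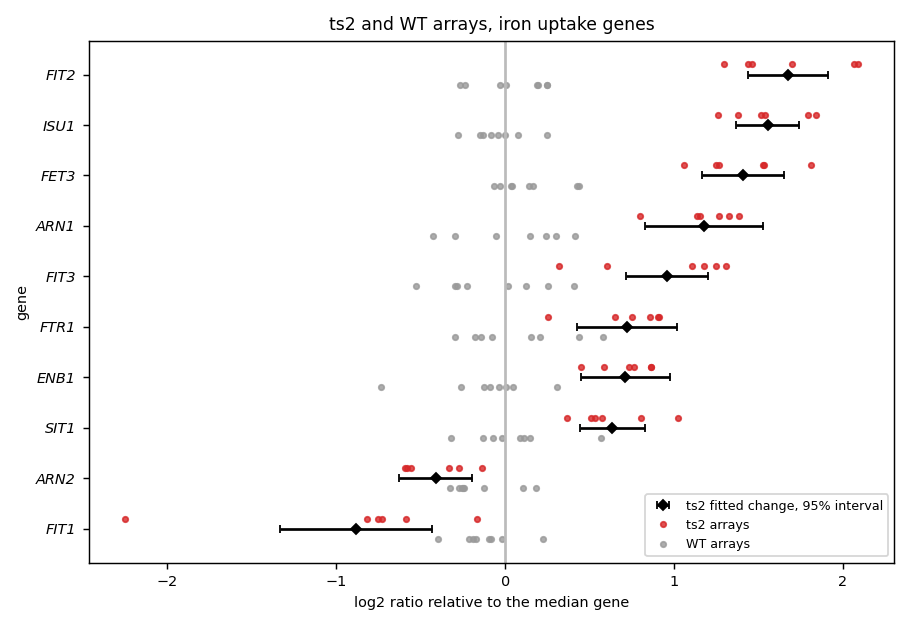
Log2 ratios relative to the median gene (x axis) of the 10 iron uptake genes (y axis) on the 6 ts2 arrays (red points) and the 8 WT arrays (grey points), with limma's fitted ts2 change and its 95% confidence interval (black). FIT2, ISU1, FET3, ARN1 and ENB1 have every ts2 array above every WT array, and FIT1 and ARN2 lie to the left of 0.

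Among the mannoprotein genes, FIT2 had a lowest value of 1.29, a median of 1.58 and a highest of 2.09 on the ts2 arrays, against -0.27, 0.10 and 0.25 on the WT arrays. The groups did not overlap. The fitted change was 1.67 ± 0.12, or 3.19-fold (limma, adjusted p = 6.83e-13), the highest of the 10 genes and 107th of the 5546 genes from the top. FIT3, which lies beside FIT2 on chromosome XV, had 0.32, 1.14 and 1.31 on the ts2 arrays, against -0.53, -0.10 and 0.41 on the WT arrays, and the lowest ts2 array fell among the WT arrays. Its change was 0.96 ± 0.12, 1.95-fold (limma, adjusted p = 5.18e-08). FIT1, on chromosome IV, went the other way. It had -2.25, -0.74 and -0.16 on the ts2 arrays, against -0.40, -0.13 and 0.22 on the WT arrays. The FIT1 change of -0.88 ± 0.22, 1.84-fold lower (limma, adjusted p = 0.00088), was -0.65 without ts2 array B, which held the lowest value. FIT1 was also the member with the widest spread between arrays of a group, a residual SD of 0.56 on the log2 scale against a median of 0.22 over all genes.

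Both partners of the reductive route were higher in ts2. FET3, the ferroxidase gene, had 1.06, 1.40 and 1.81 on the ts2 arrays, against -0.07, 0.09 and 0.44 on the WT arrays, without overlap. Its change was 1.41 ± 0.12, 2.65-fold (limma, adjusted p = 3.65e-11). FTR1, the permease gene, had 0.25, 0.81 and 0.91 on the ts2 arrays, against -0.30, 0.04 and 0.58 on the WT arrays, and here 1 ts2 array lay among the WT arrays. The FTR1 change was 0.72 ± 0.15, 1.65-fold (limma, adjusted p = 9.0e-05).

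The 4 siderophore transporters divided in ts2, with 3 higher and 1 lower. ARN1, whose product imports ferrichrome-type chelates, had 0.80, 1.21 and 1.39 on the ts2 arrays, against -0.43, 0.15 and 0.41 on the 7 WT arrays with a value. Its change was 1.18 ± 0.17, 2.26-fold, with no overlap (limma, adjusted p = 9.41e-07). ENB1, the enterobactin transporter gene, had 0.45, 0.75 and 0.87 on the ts2 arrays, against -0.74, -0.06 and 0.30 on the WT arrays, again without overlap. The change of ENB1 was 0.71 ± 0.13 (limma, adjusted p = 2.08e-05). SIT1, the ferrioxamine B transporter gene, had 0.37, 0.55 and 1.03 on the ts2 arrays, against -0.32, 0.03 and 0.57 on the WT arrays. A single WT array at 0.57 reached into the ts2 values, and the change was 0.63 ± 0.09 (limma, adjusted p = 1.02e-06). ARN2, the transporter gene for triacetylfusarinine C, has the older name TAF1 but is not the TFIID gene mutated here. ARN2 had -0.59, -0.44 and -0.14 on the ts2 arrays, against -0.33, -0.25 and 0.18 on the WT arrays, and the groups overlapped. Its change was -0.41 ± 0.11, 1.33-fold lower (limma, adjusted p = 0.0012). The fit sets ts2 against a ratio of 0, and for ARN2 the WT arrays themselves averaged -0.15 ± 0.19 (SD, n = 8).

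ISU1 had 1.26, 1.53 and 1.84 on the ts2 arrays, against -0.28, -0.06 and 0.25 on the WT arrays. Every ts2 array exceeded every WT array by more than 1 log2 unit. With 1.55 ± 0.09, 2.94-fold, ISU1 had the lowest adjusted p of the 10 genes (limma, 2.27e-14) and a residual SD of 0.23, near the median gene. The arrays were printed from amplified genomic DNA, and ISU2, the duplicate gene of similar sequence, was at 1.5 ± 0.08 in ts2. The part of related sequence in the values of ISU1, the ARN family and the FIT genes was not tested.

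**Figure D2:**
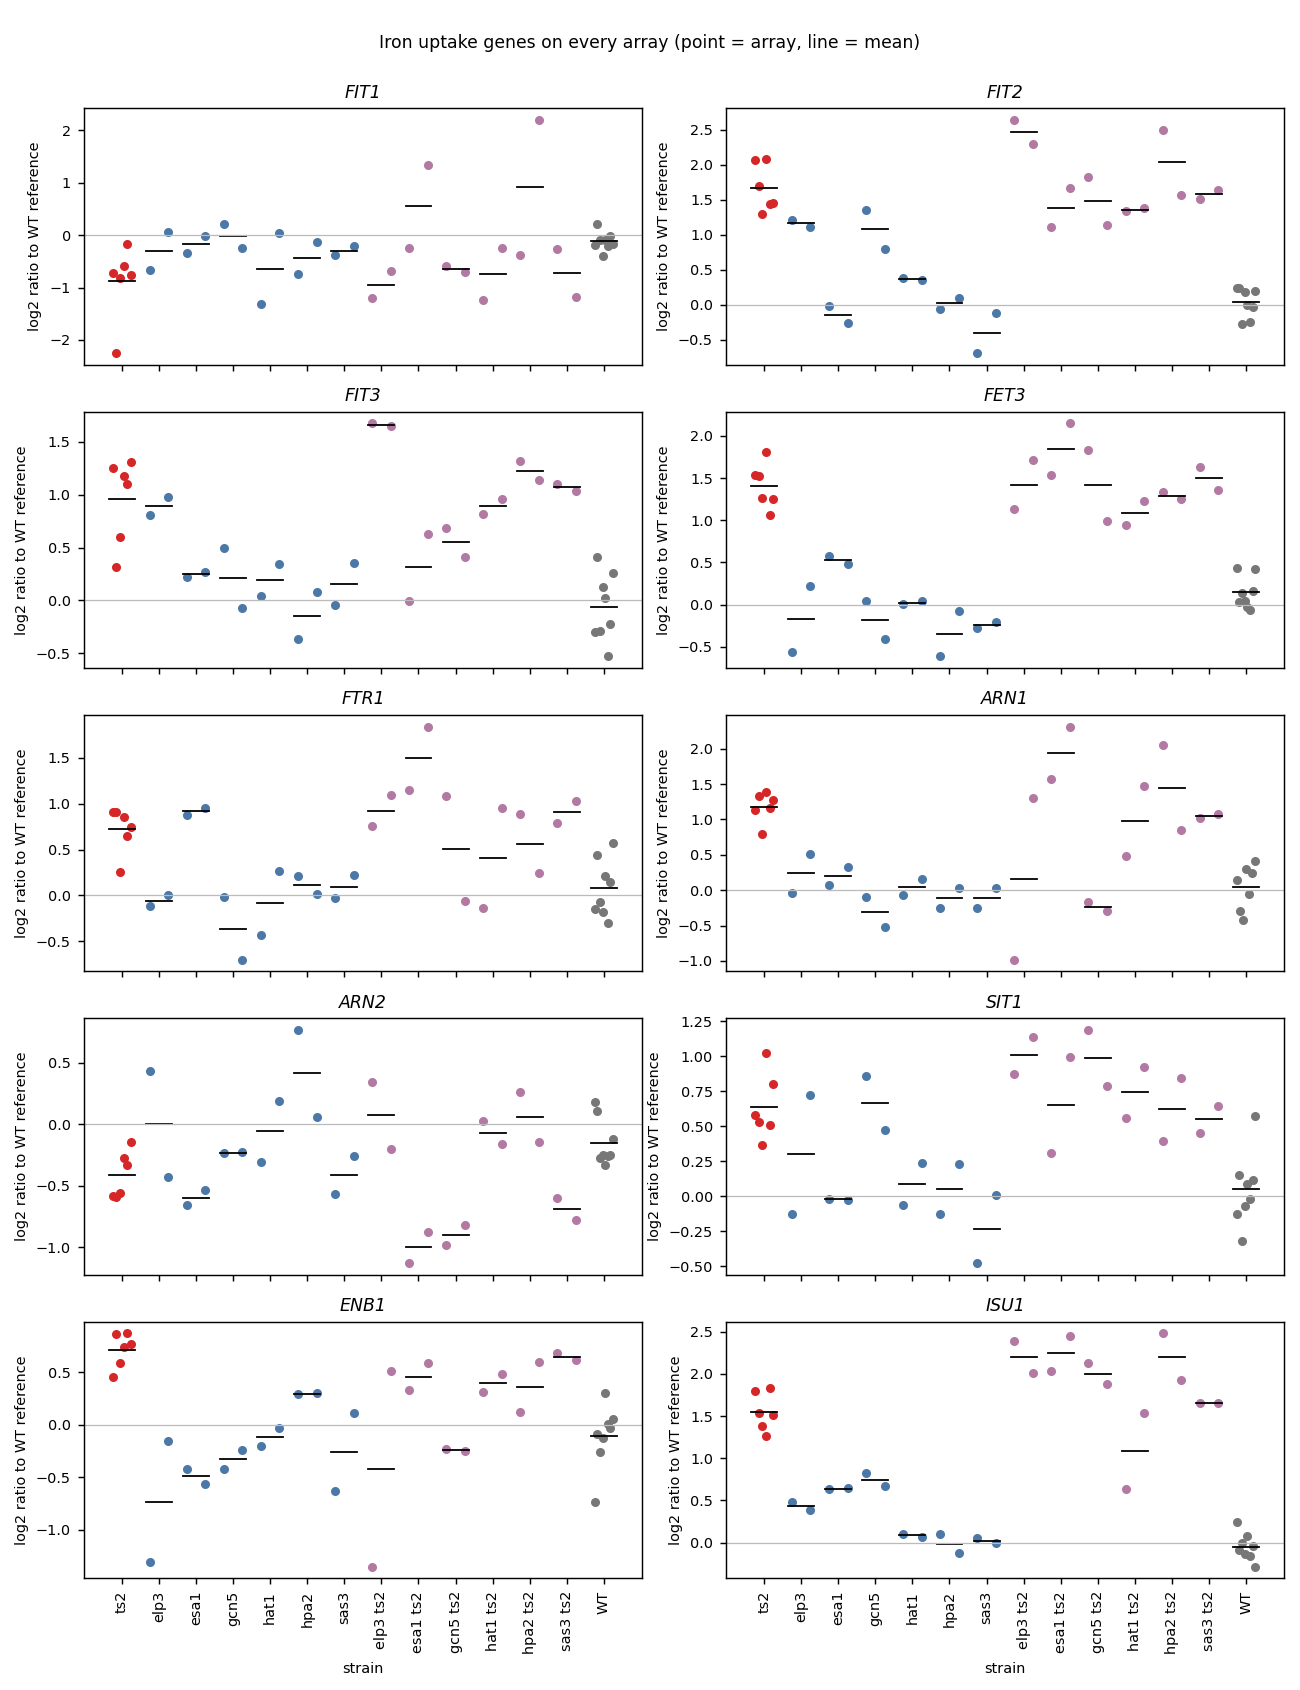
Log2 ratio to WT relative to the median gene (y axes, each with its own range) for each iron uptake gene on each of the 38 arrays by strain (x axes), with points for arrays and black lines for group means. FIT2, FET3, SIT1 and ISU1 are raised in ts2 and all 6 double mutants, while the 2 arrays of a strain differ for FIT1 in hpa2 ts2 (-0.38 and 2.20) and for ARN1 in elp3 ts2 (-0.98 and 1.30).

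Without the ts2 allele, 2 of the 10 iron uptake genes were called in elp3 (0.452% of all genes called), 3 in esa1 (28.8%), 3 in gcn5 (18.5%) and none in the other HAT mutants. Over these 60 tests, 7 calls were higher and 1 lower. The count in esa1 is near the share over all genes, and that in gcn5 is not far above its share. The FIT2 gene was higher in elp3 and gcn5, ISU1 in esa1 and gcn5, FIT3 in elp3, FTR1 in esa1 and SIT1 in gcn5, and ARN2 was lower in esa1. On the deposited scale 0 of the 60 tests were called, and 0 with the array letter as a replicate block. Each of these groups has 2 arrays, and limma's fit takes its spread from all groups.

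In elp3, 2 of the 10 genes were called, both higher, where 0.452% of 5533 genes were called. FIT2 was at 1.21 and 1.11 on the elp3 arrays, above all WT arrays, a change of 1.16 ± 0.20 (limma, adjusted p = 0.0053). FIT3 was at 0.81 and 0.98, also above all WT arrays, a change of 0.89 ± 0.20 (limma, adjusted p = 0.039). These neighbouring genes ranked 4th and 7th from the top of all genes in elp3. ISU1 (0.49 and 0.39) also lay above all WT arrays but was not called. FIT1 (-0.67 and 0.06) and ENB1 (-1.31 and -0.16) overlapped the WT arrays. At an unadjusted p below 0.05 in limma's fit, 4 members passed in elp3. The elp3 calls depended on the handling of the arrays. Within slide run 1, which holds both elp3 arrays and 2 WT arrays, the changes were the same size but neither was called (adjusted p = 0.52 for FIT2 and for FIT3). Both calls were also lost when the slide run entered as a block, with dye swaps averaged, and without elp3 array B, and that of FIT3 without array A too.

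In esa1, mutated in the catalytic subunit gene of the NuA4 complex, 3 genes were called, 2 higher and 1 lower, where 28.8% of 5520 genes were called. FTR1 was at 0.88 and 0.96 on the esa1 arrays, above every WT array, a change of 0.92 ± 0.25 (limma, adjusted p = 0.0067). ISU1 was at 0.64 on both arrays, a change of 0.64 ± 0.16 (limma, adjusted p = 0.0029), and again above every WT array. ARN2 was at -0.66 and -0.53, below every WT array, a change of -0.60 ± 0.18 (limma, adjusted p = 0.015). FET3, at 0.57 and 0.48, also lay above every WT array but was not called (0.53 ± 0.20, limma, adjusted p = 0.054). FIT2 was at -0.01 and -0.26 in esa1, within the WT arrays. Without esa1 array A or B the group holds 1 array, and the calls were lost either way. The changes were then 0.91 and 0.92 (FTR1), 0.67 and 0.61 (ISU1) and -0.50 and -0.69 (ARN2). The ARN2 call was also lost when the slide run entered as a block. All 3 calls held within slide run 3, where FET3 (0.53, limma, adjusted p = 0.038) and ENB1 (-0.49, adjusted p = 0.008) were called too.

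In gcn5, mutated in the catalytic subunit gene of SAGA, 3 genes were called, all higher, where 18.5% of 5542 genes were called. FIT2 was at 1.36 and 0.80 on the gcn5 arrays, above all WT arrays, a change of 1.08 ± 0.20 (limma, adjusted p = 0.0003). ISU1 was at 0.83 and 0.67, above all WT arrays, a change of 0.75 ± 0.16 (limma, adjusted p = 0.0012). SIT1 was at 0.86 and 0.47, which overlapped the highest WT array, a change of 0.67 ± 0.16 (limma, adjusted p = 0.0039). The neighbour of FIT2, FIT3, was at 0.50 and -0.08 in gcn5, and FTR1 was at -0.02 and -0.70, and neither was called. All 3 calls were lost without gcn5 array A, and SIT1 was then at 0.32. The SIT1 call was also lost when the slide run entered as a block. Within slide run 2 the 3 calls held, and ENB1 (-0.33, adjusted p = 0.018) was called lower.

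The other 3 HAT mutants had no call, at backgrounds of 0.572% (hat1), 0.401% (hpa2) and 0.163% (sas3) of genes called. At an unadjusted p below 0.05 in limma's fit, 0 members passed in hat1, 1 in hpa2 and 1 in sas3, both times ARN2. The 2 ARN2 changes were opposite, 0.41 in hpa2 (arrays at 0.77 and 0.06) and -0.41 in sas3 (arrays at -0.57 and -0.26). FIT2 was at 0.38 and 0.36 on the hat1 arrays, just above the highest WT array, at -0.06 and 0.10 on the hpa2 arrays, and at -0.69 and -0.12 on the sas3 arrays. FIT1 had unlike values on the hat1 arrays, -1.31 and 0.03. ISU1 stayed between -0.12 and 0.11 on all 6 arrays of these mutants.

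**Figure D3:**
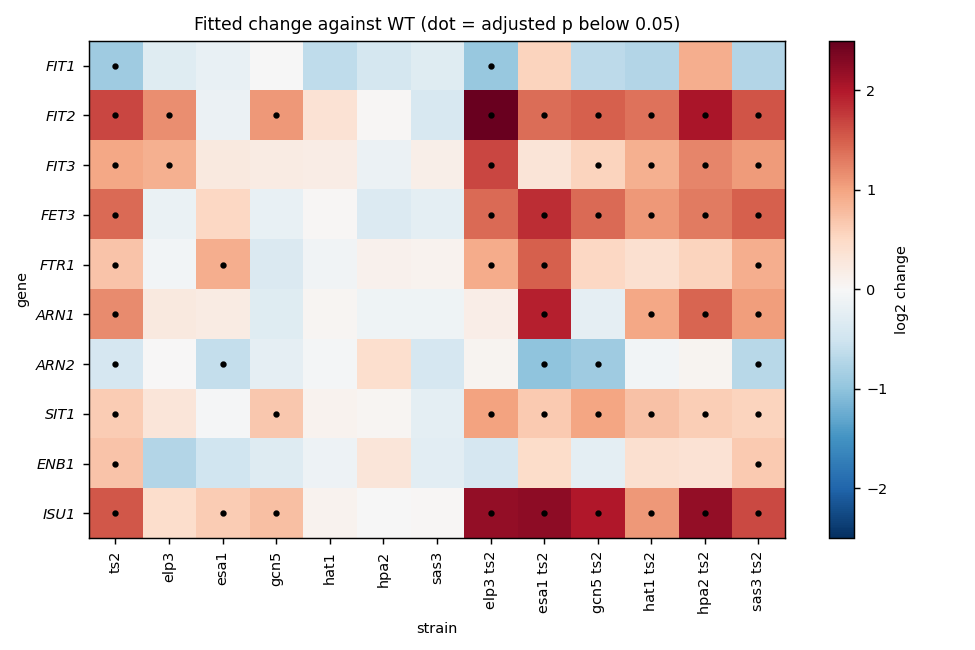
Fitted log2 change against WT (colour, red higher and blue lower) of the 10 iron uptake genes (y axis) in the 13 mutant strains (x axis), with a dot where limma's adjusted p was below 0.05. Dots fill the columns of ts2 (10) and sas3 ts2 (9), are scattered over elp3 (2), esa1 (3) and gcn5 (3), and are absent from hat1, hpa2 and sas3.

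In the double mutants, 41 of 60 tests against WT were called, 37 higher and 4 lower. FIT2, FET3, SIT1 and ISU1 were called higher in all 6 double mutants, and FIT3 in 5. ARN1 was called higher in 4, FTR1 in 3 and ENB1 in 1. ARN2 was called lower in 3 and FIT1 in 1. By strain, 7 genes were called in elp3 ts2 (background 39.7% of genes called), 7 in esa1 ts2 (56.3%), 6 in gcn5 ts2 (54.1%), 6 in hat1 ts2 (31.5%), 6 in hpa2 ts2 (45.2%) and 9 in sas3 ts2 (48.2%). The counts in esa1 ts2 and gcn5 ts2 are near these shares. Over all genes, 15% (hat1 ts2) to 27.8% (esa1 ts2) were called higher and 16.4% to 28.5% lower in the same strains. On the deposited scale 13 of the 60 were called, and SIT1 in esa1 ts2 (-0.38) and FIT3 in gcn5 ts2 (-0.05) lay on the other side of 0.

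ISU1 was at 2.39 and 2.01 in elp3 ts2, 2.04 and 2.44 in esa1 ts2, 2.13 and 1.88 in gcn5 ts2, 0.63 and 1.54 in hat1 ts2, 2.48 and 1.93 in hpa2 ts2, and 1.65 and 1.66 in sas3 ts2. Each of these 12 values was above every WT array. The 4 highest means, of esa1 ts2, hpa2 ts2, elp3 ts2 and gcn5 ts2 (2.24 to 2.00), overlapped one another in order, and both arrays of each were above every ts2 array. Fitted changes against WT were 1.08 ± 0.16 in hat1 ts2 to 2.24 ± 0.16 in esa1 ts2 (limma, adjusted p = 7.6e-06 and 2.15e-12).

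FIT2 was at 2.64 and 2.30 in elp3 ts2, 1.11 and 1.67 in esa1 ts2, 1.83 and 1.14 in gcn5 ts2, 1.34 and 1.38 in hat1 ts2, 2.5 and 1.58 in hpa2 ts2, and 1.52 and 1.64 in sas3 ts2. All were above the WT arrays, and those of elp3 ts2 were also above every ts2 array. Its change in elp3 ts2, 2.47 ± 0.20 or 5.55-fold (limma, adjusted p = 1.74e-10), ranked 9th from the top of 5526 genes. FIT3 was highest in the same strain, at 1.68 and 1.65 (1.66 ± 0.20, limma, adjusted p = 2.55e-07), and lowest in esa1 ts2, at -0.01 and 0.63, where it was not called (0.31). Its calls in gcn5 ts2 and hat1 ts2 were lost without gcn5 ts2 array A (0.35) and hat1 ts2 array B (0.87).

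FET3 was at 1.54 and 2.15 in esa1 ts2, its highest double mutant, and at 0.94 and 1.23 in hat1 ts2, its lowest. All 12 double mutant values lay above the WT arrays, and the fitted changes were 1.08 ± 0.20 to 1.84 ± 0.20. FTR1 was highest in esa1 ts2 too, at 1.15 and 1.84 (1.49 ± 0.25, limma, adjusted p = 1.16e-05). The FTR1 calls in elp3 ts2 and sas3 ts2 were each lost without array B (0.79 and 0.83). Its array pairs disagreed in gcn5 ts2 (1.08 and -0.06), hat1 ts2 (-0.14 and 0.95) and hpa2 ts2 (0.89 and 0.24), where it was not called.

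Of the siderophore transporters, SIT1 was called in every double mutant, from 0.55 ± 0.16 in sas3 ts2 to 1.01 ± 0.16 in elp3 ts2. In 4 of the 6 the SIT1 call was lost with 1 array left out: esa1 ts2 without array B (0.43, adjusted p = 0.14), hat1 ts2 without B (0.69, adjusted p = 0.053), hpa2 ts2 without B (0.53, adjusted p = 0.089), and sas3 ts2 without either array (0.51 and 0.59, adjusted p = 0.11 and 0.052). ARN1 depended on the strain. It was at 1.57 and 2.31 in esa1 ts2 and at -0.17 and -0.29 in gcn5 ts2, the first pair above and the second below every ts2 array. In elp3 ts2 its arrays were at -0.98 and 1.30, and no call was made. In hpa2 ts2, ARN1 was at 2.05 and 0.85 (1.45 ± 0.29, limma, adjusted p = 0.00021). Without hpa2 ts2 array A it was at 0.64 and not called (adjusted p = 0.18), whereas the other 5 calls in hpa2 ts2 held without that array, FIT2 at 1.60, FIT3 at 1.08, FET3 at 1.23, SIT1 at 0.71 and ISU1 at 1.94. ARN1 also lost its call without hat1 ts2 array B (0.62) and without sas3 ts2 array A (0.91). ARN2 was at -1.13 and -0.87 in esa1 ts2, -0.98 and -0.82 in gcn5 ts2, and -0.60 and -0.78 in sas3 ts2, below every WT array in each. The 3 fitted ARN2 changes were -1.0 ± 0.18, -0.90 ± 0.18 and -0.69 ± 0.18 (limma, adjusted p = 3.53e-05, 0.00015 and 0.0027), and that of sas3 ts2 was not called without its array B (-0.63, adjusted p = 0.067). ENB1 was called only in sas3 ts2 of the double mutants (0.68 and 0.61), and this call was lost without sas3 ts2 array A. It also lay above every WT array in esa1 ts2 (0.33 and 0.58) and hat1 ts2 (0.31 and 0.48). Within slide runs 3 and 4 it was called higher in these (limma, adjusted p = 0.0059 and 0.035). Within slide run 2 it was called lower in gcn5 ts2 (-0.24, adjusted p = 0.030).

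FIT1 scattered most in the double mutants. Its arrays were at -0.38 and 2.20 in hpa2 ts2 and at -0.24 and 1.35 in esa1 ts2, whereas they were at -0.59 and -0.71 in gcn5 ts2 and at -1.20 and -0.68 in elp3 ts2. The gcn5 ts2 and elp3 ts2 pairs lay below all WT arrays, and elp3 ts2 was the only call against WT (-0.94 ± 0.38, limma, adjusted p = 0.049). The elp3 ts2 call was lost under 17 of 22 alternatives, 7 of them the omission of 1 WT array. Within slide run 2, FIT1 was called lower in gcn5 ts2 (-0.65, limma, adjusted p = 0.000998).

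Against ts2, the double mutants show what a second mutation added, and the 6 ts2 arrays serve all 6 comparisons. Of 60 tests, 11 were called, 6 higher and 5 lower. On the deposited scale 0 were, and 1 was with the array letter as a replicate block. The called genes were FIT2, ISU1 and ENB1 in elp3 ts2 (10.1% of genes called), FIT1, ISU1, FIT3 and ARN2 in esa1 ts2 (24.1%), ARN1 and ENB1 in gcn5 ts2 (23.3%), and FIT1 and ISU1 in hpa2 ts2 (7.01%). The count in gcn5 ts2, 2 of 10, is below its share over all genes, and that in esa1 ts2, 4 of 10, is not far above its share. No member was called in hat1 ts2 (4.98% of genes called) or sas3 ts2 (0.181%). At an unadjusted p below 0.05 in limma's fit, 1 member passed in hat1 ts2 and 0 in sas3 ts2.

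ISU1 was higher than in ts2 by 0.64 ± 0.18 in elp3 ts2, 0.69 ± 0.18 in esa1 ts2 and 0.65 ± 0.18 in hpa2 ts2 (limma, adjusted p = 0.025, 0.0067 and 0.030). Its difference in gcn5 ts2 was 0.45 ± 0.18 (adjusted p = 0.077), and within slide run 2 it was 0.48 and called (limma, adjusted p = 0.047). The elp3 ts2 and hpa2 ts2 arrays lie in slide run 1, which holds no ts2 array, so these differences cannot be told apart from that of the runs except through the WT arrays. When the slide run entered as a block they were 0.41 and 0.41 and not called, whereas esa1 ts2 was at 0.58 (adjusted p = 0.049) and, within slide run 3, at 0.55 (adjusted p = 0.034). The esa1 ts2 call was lost with the array letter as a replicate block (0.54, limma, adjusted p = 0.11) and on the deposited scale (0.02, adjusted p = 0.98). The 3 calls were also lost without elp3 ts2 array A (0.47), esa1 ts2 array B (0.45) or hpa2 ts2 array A (0.38). That of hpa2 ts2 was also lost without ts2 array D (0.59, adjusted p = 0.057).

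FIT2 was higher in elp3 ts2 than in ts2 by 0.80 ± 0.23 (limma, adjusted p = 0.029), and FIT3 by 0.70 ± 0.24 (adjusted p = 0.056). The FIT2 call was lost without either elp3 ts2 array and when the slide run entered as a block. In esa1 ts2, FIT3 was lower than in ts2 (-0.65 ± 0.24, limma, adjusted p = 0.046) and ARN2 as well (-0.59 ± 0.21, adjusted p = 0.043). Both esa1 ts2 calls were lost without either esa1 ts2 array, without ts2 array D, E or F, and within slide run 3, and that of FIT3 also without ts2 array A or WT array D or E.

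ARN1 was lower in gcn5 ts2 than in ts2 by the widest margin of the transporters (-1.41 ± 0.34, limma, adjusted p = 0.003), and ENB1 was lower in the same strain (-0.95 ± 0.26, adjusted p = 0.0072). Both gcn5 ts2 arrays lay below all 6 ts2 arrays for each gene. ENB1 was at -0.23 and -0.25 there, against 0.45 to 0.87 on the ts2 arrays. Without gcn5 ts2 array B neither was called (ARN1 -1.18, adjusted p = 0.088, and ENB1 -0.75, adjusted p = 0.15). Within slide run 2 both genes stayed called in gcn5 ts2. FIT2 (-0.59, limma, adjusted p = 0.036) and FIT3 (-0.66, adjusted p = 0.041) were called lower than in ts2 there too. ENB1 was also lower in elp3 ts2 (-1.13 ± 0.26, adjusted p = 0.0071), where array A at -1.35 and array B at 0.51 disagreed. The ENB1 difference in elp3 ts2 was -0.34 without array A and was not called, nor was it when the slide run entered as a block (-1.11, adjusted p = 0.16).

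FIT1 was higher than in ts2 in esa1 ts2 (1.44 ± 0.44, limma, adjusted p = 0.017) and in hpa2 ts2 (1.79 ± 0.44, adjusted p = 0.012). In both strains 1 array was far above the other, and without it neither was called (0.87 without esa1 ts2 array B and 0.70 without hpa2 ts2 array B). Without hpa2 ts2 array A the difference was 2.89 and called. The hpa2 ts2 call was also lost when the slide run entered as a block (1.85, adjusted p = 0.17) and with array weights (1.77, adjusted p = 0.14).

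**Figure D4:**
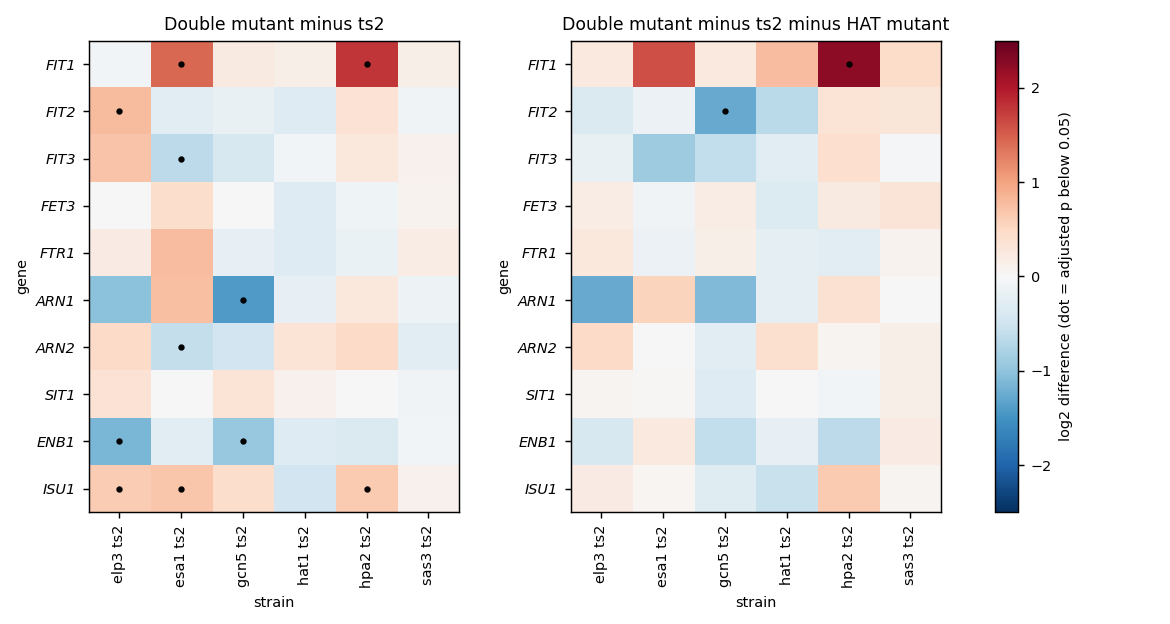
Left, log2 difference of each double mutant from ts2, and right, the same difference less the change of the HAT mutant alone, for the 10 iron uptake genes (y axes) and 6 double mutants (x axes), with a dot where limma's adjusted p was below 0.05. The left panel has 11 dots, 3 of them on ISU1, and the right panel has 2, FIT2 in gcn5 ts2 and FIT1 in hpa2 ts2.

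The interaction asks whether a double mutant departs from the sum of its single mutants on the log2 scale. Of 60 tests, 2 were called. FIT2 was lower than the sum in gcn5 ts2 (-1.27 ± 0.31, limma, adjusted p = 0.039, with 0.993% of genes called). FIT2 was higher by 1.49 in gcn5 ts2, against 1.08 in gcn5 and 1.67 in ts2. Within slide run 2 the value was -1.67 (adjusted p = 0.013), and ARN1 was called there too (-1.19, adjusted p = 0.029). The FIT2 call was lost without any 1 of the 4 gcn5 and gcn5 ts2 arrays or ts2 array A. FIT1 exceeded the sum in hpa2 ts2 (2.23 ± 0.58, limma, adjusted p = 0.040, with 1.83% of genes called). That value was 3.32 and called without hpa2 ts2 array A, and 1.14 and not called without array B, at 2.20. The call was also lost without either hpa2 array or ts2 array F, and when the slide run entered as a block (2.25, adjusted p = 0.10). No member was called in elp3 ts2 (0.725% of genes called), esa1 ts2 (4.89%), hat1 ts2 (0.409%) or sas3 ts2 (0%). At an unadjusted p below 0.05 in limma's fit, 1, 2, 2 and 0 members passed in these. Under the alternatives, in esa1 ts2 1 member was called lower with the slide as a random factor, and 1 higher and 1 lower with array weights.

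Across the 13 mutant groups, the fitted changes of FET3 and ISU1 had a Pearson r of 0.93, those of FIT2 and SIT1 0.91, FIT2 and ISU1 0.86, FIT2 and FIT3 0.85, and FET3 and FTR1 0.84. FIT1 had an r of -0.01 with FIT2 and -0.17 with FIT3. ARN2 was the member most opposed to the others, with an r of -0.55 with FTR1. These are descriptions over 13 groups that share the WT reference, and 7 of which share the ts2 allele. Among all other genes, those with the pattern most like FET3 were CWP2 (r = 0.99), PNC1 (0.98), PRB1 (0.98), SCM3 (0.98) and ILV5 (0.98). Those most like the mean of the 3 FIT genes were AQR1 (0.90), SPT2 (0.90), PCI8 (0.89), MLF3 (0.88) and MTF1 (0.88).

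The other genes of iron handling were called in ts2 in both directions, as were all genes (65.2% called, 32% higher and 33.2% lower), and nothing is read from counts near those shares. Of 17 other Aft1 and Aft2 targets tested, 9 were called higher and 4 lower, with a median of 0.20 where all genes had 0.01. PCL5, a cyclin gene, was at 1.91 ± 0.10 and TIS11 (CTH2), whose product degrades messages of iron-using proteins, at 0.94 ± 0.34. ATX1, a copper chaperone gene, was at -1.21 ± 0.10, and FRE1, a surface ferric reductase gene, at -0.49 ± 0.11. The reductases that feed Fet3 and Ftr1 were not uniformly higher, with FRE2 at 0.31 ± 0.09 and called higher. Of 9 sensing and storage genes, 3 were higher and 3 lower, near the shares over all genes. AFT1 (0.89 ± 0.07) and AFT2 (0.43 ± 0.09) were among the higher ones, and GRX3 (-0.82 ± 0.07) and BOL2 (-0.67 ± 0.08) among the lower ones. These were named for the size of their change, and others of the list, such as GRX4 and FRA1, are not given here. A link of these changes to the iron uptake genes was not tested.

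Of 24 iron-sulfur assembly genes, 9 were higher and 7 lower in ts2, again near the shares over all genes, with a median of 0.02. ISA1 (2.07 ± 0.06) and ISU2 (1.5 ± 0.08) rose most, and ATM1 (-0.79 ± 0.07), the mitochondrial exporter gene, and ERV1 (-0.63 ± 0.10) fell most. Among 11 genes for iron-sulfur proteins, 5 were higher and 4 lower. ACO1, the aconitase gene, was at 2.96 ± 0.10 and SDH2, a succinate dehydrogenase gene, at 1.28 ± 0.09, whereas BIO2, the biotin synthase gene, was at -2.41 ± 0.11 and LYS4 at -0.80 ± 0.10. Of 13 copper, zinc and low-affinity metal transport genes, 3 were higher and 5 lower, with SMF1 (1.21 ± 0.09) and MAC1 (0.25 ± 0.10) the largest rises and FET4 (-0.53 ± 0.11) and CTR3 (-0.49 ± 0.14) the largest falls. Adjusted p was below 0.05 in limma's fit for each gene named as higher or lower.

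**Figure D5:**
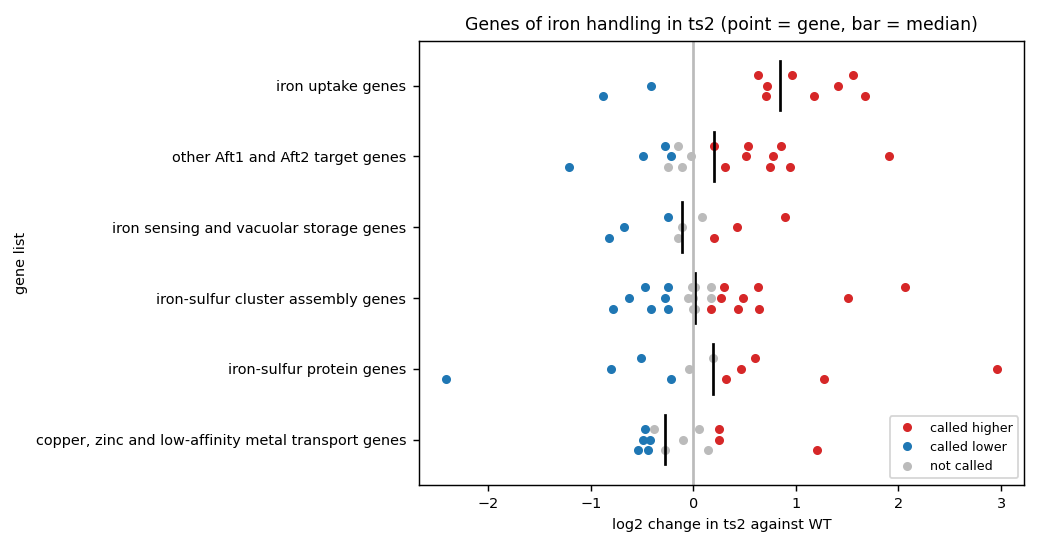
Fitted log2 change in ts2 against WT (x axis) of each gene in the iron uptake list and 5 related lists (y axis), red where called higher, blue where called lower and grey where not called, with a black bar at each list's median. The iron uptake genes have the highest median, 0.84, and the related lists have medians of -0.27 to 0.20.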

How the data were processed

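Each array compared polyA RNA of a test strain with that of the WT strain on 7056 spots of amplified yeast DNA. The deposited values were linear ratios of test strain to WT (with a few at or below 0), which the series description says the authors normalized by mode in R and corrected by Bacillus subtilis spikes added per OD600. Whether the spike correction precedes the deposited ratio values was not given in the sources used here. Values at or below 0 were set missing, log2 was taken, each array's median over 5548 named genes was subtracted and spots of a gene were averaged.

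Limma 3.58.1 in R 4.3.3 fitted all 38 arrays, with 13 mutant coefficients, WT fixed at 0 and a dye term per gene (14 coefficients, 24 residual degrees of freedom). The test thus sets the ratio against 0, with WT arrays adding to the spread and the dye term. Genes needed a value on 4 of 6 ts2, 6 of 8 WT and all arrays of groups of 2. The dye sign of the WT arrays came from the other array on the slide or the array's letter. P-values were adjusted by Benjamini-Hochberg within each of 25 comparisons (13 against WT, 6 double mutants against ts2, 6 interactions), at 0.05. The highest correlation between arrays was 0.91, and none were identical. In 1 of 342 array pairs of the same dye orientation r was below -0.3 (hpa2 A with ts2 A, -0.31). The labels state the dyes, so its direction stayed as labelled, with the opposite sign as an alternative. The number of arrays limits precision, and array intensities were not used here, so signal over background was not checked.

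The members and the lists of related genes were chosen with earlier results of these data known. Named genes were the 10 members, up to 2 largest called rises and falls of each related list, and the 5 genes most like FET3 and the FIT mean. FRE2 was named after its value was seen. Slide runs (1 to 4, by slide number) were tested as batches. Alternatives were the deposited scale, no dye term, no WT dye sign, slide run as a block or alone, averaged dye swaps, array weights, slide as a random block, no filter, the array letter as a replicate block, and each array left out. With dye swaps averaged or 1 of 2 arrays left out, a group holds 1 value, and its spread is then taken from the remaining groups. The test was tried on simulated data. A planned promoter motif search was not run.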

Additional observations from a re-analysis of the deposited data

Results flagged for a closer look

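FIT1 on ts2 array B was at -2.25, and the other 5 ts2 arrays lay between -0.82 and -0.16. Its gap to the nearest array exceeded Dixon's critical value for 6 arrays. Over 10 genes in the ts2 and WT groups, 1 of 20 sets of arrays passed, and chance gives about 1 in 20. FIT2 in gcn5 ts2 departed from the sum of gcn5 and ts2 by -1.27, and FIT1 in hpa2 ts2 departed from the sum of hpa2 and ts2 by 2.23. For both, limma's interaction term was the test of the difference.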

How the results depend on the processing

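The 10 calls in ts2 were 7 on the deposited scale and 8 to 10 under the other alternatives run. Calls in the 6 HAT mutants (8) numbered 0 on the deposited scale, 4 with the slide run as a block, 0 with the replicate block and 4 to 9 with 1 array left out. Calls in the 6 double mutants against WT (41) numbered 13 on the deposited scale, and 30 to 50 under the other alternatives. Against ts2 (11), they numbered 0 on the deposited scale, 4 with the slide run as a block, 1 with the replicate block and 7 to 13 with 1 array left out. Of the 2 interactions called, 0 were called on the deposited scale, 1 each without a dye term, with the slide run as a block, with the replicate block and with hpa2 array A turned (a choice made after seeing the data), and 1 to 3 with 1 array left out. Within slide runs, 2 were called over 4 comparisons, where the fit to all arrays called 1. On the deposited scale SIT1 in esa1 ts2 was at -0.38 and FIT3 in gcn5 ts2 at -0.046. The cause of these changes was not tested. Of all 72 called values, 72 kept direction and call without the filter, without WT dye signs and with the median of all spots (also chosen after seeing the data), 71 with slide as a random block, 69 without a dye term, 69 with hpa2 array A turned, 64 with averaged dye swaps, 64 with array weights, 58 with the slide run as a block, 42 with the replicate block and 19 on the deposited scale. With 1 array left out, 774 of 842 did. The main fit did not take the array letters as pairs. Deviations of same-letter arrays had a median r of -0.07 over 186 pairs, from -0.59 to 0.45. Group means and the dye term had been removed first. In groups of 2 arrays this can take out a deviation shared by letter, so the check cannot decide whether the letters are pairs. Only 2 arrays in most groups limit all double mutant results.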
